A study of Mus musculus with 12 samples.

Results

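Zfp genes encode zinc finger proteins, and the set described here is every locus of the deposited tables whose gene name is Zfp followed only by digits, except Zfp42, that reached 5 FPKM in 3 or more of the 12 libraries. FPKM is the number of fragments scaled to transcript length and library size, so it is a level per length. Of 23136 named loci, 337 matched the name and 179 of these passed the level threshold, while 158 stayed under it. The genes were chosen by their FPKM in these same libraries, so the level itself is a description here, and only differences between groups were tested. The libraries come from mouse cells of strain C57 Bl/6J in 4 groups of 3. The first group is wild-type embryonic stem cells (ESC) and the second is wild-type epiblast-like cells (EpiLC). The other two are ESC with the Sirt1 gene knocked out (Sirt1KO) and Sirt1KO ESC in which Otx2 was also knocked down (Sirt1KO Otx2KD). ESC were grown without serum in LIF, PD0325901 at 1 uM (a MEK inhibitor) and CHIR99021 at 3 uM (which blocks GSK3), a medium that holds them in the naive state of the epiblast before implantation. EpiLC were made from wild-type ESC in 48 h on Activin A at 20 ng/ml, Fgf2 at 12 ng/ml and the serum replacement KOSR at 1%, and resemble the primed epiblast after implantation. The labels name neither the number of clones behind each line nor the method of the knockdown, and the replicates are not said to be separate cultures, so p-values measure the spread between these libraries. The series' text sets the question of how the naive to primed transition compares with what losing Sirt1, and then lowering Otx2, changes in ESC.

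Most proteins of this family read DNA through C2H2 zinc fingers, short loops in which a pair of cysteines and a pair of histidines hold a zinc ion, and a chain of fingers binds a longer site. The largest subfamily adds a KRAB box, which recruits the scaffold protein TRIM28. TRIM28 in turn brings the histone methyltransferase SETDB1, HP1 proteins (Cbx1, Cbx3, Cbx5) and histone deacetylases, which together silence the bound locus. KRAB zinc fingers are best known in ESC and early embryos for silencing retroelements and for keeping the methylation of imprinted genes. They arose by tandem duplication, so many sit side by side in clusters. Family members without KRAB include pluripotency regulators, partners of chromatin complexes and proteins that act on RNA.

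The targeted genes were read first. In wild-type cells Sirt1 averaged 25.8 ± 0.41 FPKM as ESC and 33.2 ± 1.24 as EpiLC (SD, n = 3 in each group). In the knockout it averaged 15.5 ± 0.20 alone and 15.6 ± 0.49 with Otx2 knocked down, lower but not absent, and the value covers the whole locus, whichever part was deleted. Otx2 averaged 100.2 ± 3.45 FPKM in EpiLC and 7.38 ± 0.46 in wild-type ESC, while Sirt1KO ESC had 27.0 ± 6.36 and the knockdown brought this to 6.07 ± 0.40. Naive markers (7 of 8 found) summed to 871 to 917 FPKM per wild-type ESC library and 194 to 202 per EpiLC library. EpiLC markers (5 of 6 names found, as Oct6 is another name of Pou3f1) summed to 29.1 to 32.0 and 738 to 754. The sums of both lists also moved in the knockout. Naive markers summed to 652 to 748 FPKM in Sirt1KO and 871 to 884 after Otx2 knockdown, and EpiLC markers to 145 to 218 and 37.4 to 40.4. The EpiLC list includes Otx2, the gene knocked down. Within the naive list, Klf4 averaged 54.4 FPKM in wild-type ESC, 108 in Sirt1KO and 49.1 in Sirt1KO Otx2KD. For Tfcp2l1 these means were 84.1, 150 and 98.9. Dppa3, Klf2, Esrrb, Prdm14 and Tbx3 had lower means in Sirt1KO than in wild-type ESC. A list of 12 fibroblast and feeder genes also moved with the groups. Its summed level was lowest in Sirt1KO at 12.5 to 16.6 FPKM, then 69.0 to 71.2 in EpiLC, 123 to 146 for wild-type ESC and 267 to 269 for Sirt1KO Otx2KD. Of its 11 tested genes, 11 were lower in Sirt1KO than in wild-type ESC and 11 were higher in Sirt1KO Otx2KD than in Sirt1KO, and Fap was at 0 FPKM in the 3 Sirt1KO libraries. The part of these cells, and of the cell-state markers, in the Zfp results was not tested. In bulk RNA, fewer cells of a type and less RNA per cell cannot be told apart. Whole chromosomes were shifted too: against wild-type ESC, chromosome 8 had median log2 changes over its tested loci of 0.40 (EpiLC), 0.46 (Sirt1KO) and 0.36 (Sirt1KO Otx2KD). For chromosome 11 the same medians were -0.46, -0.49 and -0.39. Fragment counts are not in the files, and depth relative to wild-type ESC replicate 1, estimated from the steps between low FPKM values, ran from 0.767 to 1.33.

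Most of the 179 genes were expressed at low to moderate levels in all 4 groups. Their mean over the 12 libraries had a median of 8.80 FPKM and ran from 3.60 FPKM for Zfp704 to 216 FPKM for Zfp57, against a median of 17.9 FPKM for all named loci that pass the same threshold. Means under 5 FPKM were found for 18 genes, 5 to 10 FPKM for 75, 10 to 30 FPKM for 70, and 30 FPKM or more for 16. The threshold was met in all 12 libraries by 115 genes, in 6 to 11 libraries by 53 and in 3 to 5 libraries by 11. Only through EpiLC did Zfp395 and Zfp946 pass, and only through Sirt1KO Otx2KD did Zfp704 and Zfp653. Just inside the threshold, the third highest FPKM was 5.06 for Zfp653, 5.12 for Zfp704 and 5.13 for Zfp931, and just outside it was 4.92 for Zfp251, 4.83 for Zfp661 and 4.74 for Zfp738. Replicates lay close together: the median coefficient of variation within a group was 5.49%. By group mean, EpiLC was the highest of the 4 groups for 73 genes, Sirt1KO for 43, wild-type ESC for 34 and Sirt1KO Otx2KD for 29. Sirt1KO Otx2KD was the lowest for 67 genes, EpiLC for 49, wild-type ESC for 44 and Sirt1KO for 19.

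**Figure D1:**
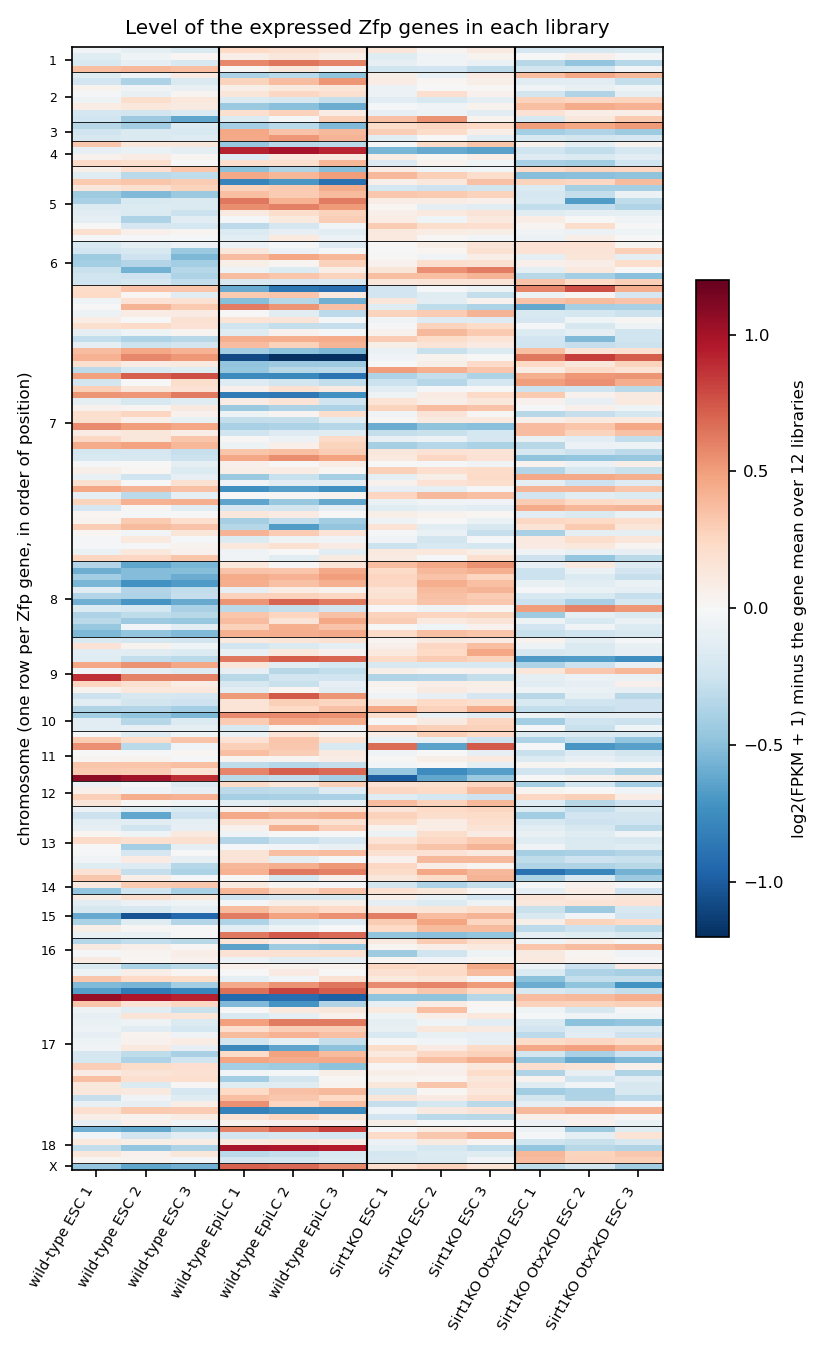
Level of each of the 179 Zfp genes (rows, by chromosome and position) in each of the 12 libraries (columns), as log2(FPKM + 1) minus the gene's mean over all libraries. Replicates of a group resemble each other, and EpiLC holds the highest group mean for 73 genes and Sirt1KO Otx2KD the lowest for 67.

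The highest levels belonged to a few genes of known function. Zfp57, which keeps imprinted regions methylated, was at 236, 257 and 255 FPKM in the wild-type ESC libraries, 117, 122 and 122 in EpiLC, 201, 223 and 231 in Sirt1KO ESC and 270.3, 281 and 275 in the Sirt1KO Otx2KD libraries. All 3 EpiLC libraries lay under every other library, and the 3 Sirt1KO Otx2KD libraries lay above all others. Zfp207, a protein of the mitotic spindle and of splicing, was at 166, 166 and 173 FPKM in EpiLC, 166, 166 and 160.2 in the wild-type ESC libraries, 145, 151 and 145 in the Sirt1KO Otx2KD libraries and 164, 170.4 and 176 in Sirt1KO ESC. Its wild-type ESC, EpiLC and Sirt1KO libraries overlapped, and the Sirt1KO Otx2KD libraries lay under all of them. Zfp106, an RNA-binding protein, had group means between 67.0 and 75.8 FPKM. Zfp428 and Zfp296 followed with means over all libraries of 54.9 and 50.9 FPKM and varied far more between groups.

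Against wild-type ESC, EpiLC had more Zfp genes higher than lower. With limma on log2(FPKM + 1), adjusted over all 12320 named loci tested and called at an adjusted p under 0.05, 79 of the 179 were higher in EpiLC and 55 were lower. Of all loci tested, 35.8% were called higher and 38.8% lower (74.6% in either direction). Here and below, all loci tested had to reach only 1 FPKM in 3 libraries, where the 179 genes had to reach 5. The part of this difference in level in the shares called was not tested. The median log2 change of the 179 genes was 0.08, against -0.02 for all loci. All log2 changes are of FPKM + 1, which understates the change of low genes. Changes of at least 1 log2 unit were called for 10 genes upward and 9 downward, where 6.53% and 8.58% of all loci were called at that size. Of these upward genes, 6 had 0 wild-type ESC libraries at the level threshold, and of the downward genes 5 had 0 EpiLC libraries there. Of the 115 genes at the threshold in all 12 libraries, 52 were higher and 37 lower. The 3 EpiLC libraries lay wholly above or below the 3 of wild-type ESC for 141 of the 179 genes, against 76.8% of all loci. Left without the genes of the shifted chromosomes 8 and 11, the counts were 66 higher and 53 lower of 159.

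Against wild-type ESC, Sirt1KO also had more Zfp genes higher than lower. Of the 179 genes, 82 were higher and 45 lower, where 32.4% of all loci were called higher and 32.7% lower (65% in either direction). Their median change was 0.10, against 0.01 for all loci. A log2 change of at least 1 was called for 3 genes upward and 5 downward (2.73% and 4.89% of all loci). The 3 upward genes, Zfp623, Zfp948 and Zfp760, had 0 wild-type ESC libraries at the level threshold, so they entered the set through groups where they were high. Of the 115 genes that met the threshold in all 12 libraries, 49 were higher and 32 lower. For 130 genes the groups did not overlap, against 68.5% of all loci. Without chromosomes 8 and 11 the counts were 70 higher and 41 lower of 159. The fibroblast and feeder markers given above fell in this comparison, and their part was not tested.

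Knockdown of Otx2 in the knockout came with more Zfp genes lower than higher. Against Sirt1KO, 46 of the 179 genes were higher in Sirt1KO Otx2KD and 92 lower, where 31.1% of all loci were called higher and 31.5% lower (62.6% in either direction). The median change was -0.19 against -0.01 for all loci. By at least 1 log2 unit, 2 genes fell (1.88% of all loci) and 0 rose (3.82%). Both, Zfp948 and Zfp72, met the level threshold in EpiLC and Sirt1KO only. Groups did not overlap for 139 genes, against 67.2% of all loci. Without chromosomes 8 and 11, 43 genes were higher and 78 lower of 159. A gene that met the level threshold only where it was high had to differ between groups, and of the 115 genes that met it in all 12 libraries, 32 were higher and 57 lower. The 11 tested fibroblast and feeder markers rose in the same comparison, and their part was not tested. Zfp loci under the level threshold did not enter these counts. Of 108 that could be tested, 7 were higher and 49 lower in Sirt1KO Otx2KD than in Sirt1KO. In Sirt1KO against wild-type ESC, 41 of them were higher and 12 lower. Their counts in EpiLC are not given here.

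Other zinc finger families at the same level threshold gave their own counts. Of 20 Zbtb genes, which pair zinc fingers with a BTB domain, 5 were higher and 9 lower in EpiLC, 7 higher and 4 lower in Sirt1KO, and 7 higher and 6 lower in Sirt1KO Otx2KD against Sirt1KO. Of 10 Zscan or Zkscan genes, which are named for a SCAN domain, 2 were higher and 3 lower in EpiLC, 4 and 4 in Sirt1KO, and 2 and 5 under the knockdown. The shares of all loci called higher and lower in these comparisons are 35.8% and 38.8%, 32.4% and 32.7%, and 31.1% and 31.5%. The families were told apart by the gene names of the files only. By current names the Zfp set itself holds Zbtb18 (Zfp238), Zbtb14 (Zfp161), Zbtb21 (Zfp295), Zscan26 (Zfp187) and Zscan25 (Zfp498). These families were not tested against the Zfp genes.

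A direct comparison of EpiLC with Sirt1KO takes its log2 changes from those groups alone, while the spread is estimated from all 12 libraries. It found 54 of the 179 genes higher in EpiLC and 64 lower, with 34% and 35.1% of all loci called (69.1% in either direction). Libraries of EpiLC and Sirt1KO did not overlap for 124 genes, against 72.4% of all loci. Zfp462 was 1.54 log2 units higher in EpiLC than in Sirt1KO, Zfp652 1.28 and Zfp532 1.18, while Zfp296 was lower by 1.23 and Zfp951 by 0.98. Sirt1KO Otx2KD against wild-type ESC had 45 genes higher and 57 lower (27.1% and 26.8% of all loci, 53.9% in either direction) and a median of -0.04. For 115 genes its groups did not overlap, against 61.3% of all loci. Past 1 log2 unit, 0 genes were called higher and 0 lower, where 1.49% and 1.75% of all loci were.

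Protein features split the 179 genes into classes. From the translated coding sequences, 83 had a KRAB box and at least 3 C2H2 fingers, with a median of 12 fingers. Another 74 had at least 3 fingers and no KRAB box, with a median of 8, and 22 had fewer than 3. Zfp142 had the most fingers, 36, and 6 genes had 0 by the pattern, among them Zfp36, whose fingers are of the CCCH kind. KRAB genes were expressed lower, with a median mean level of 7.21 FPKM against 11.9 FPKM for the genes with fingers and no KRAB box. The class was defined after the data had been seen.

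Of the 92 genes that fell under Otx2 knockdown, 53 were KRAB genes. In Sirt1KO Otx2KD against Sirt1KO, 11 of 83 KRAB genes were higher and 53 lower, with a median of -0.32, whereas 26 of 74 fingers-only genes were higher and 34 lower, with a median of -0.14. In Sirt1KO against wild-type ESC, 49 KRAB genes were higher and 15 lower (median 0.25), and 28 fingers-only genes were higher and 22 lower (median 0.05). In EpiLC 36 KRAB genes were higher and 26 lower (median 0.04), and 34 fingers-only genes were higher and 23 lower (median 0.11). Against wild-type ESC, Sirt1KO Otx2KD had 17 KRAB genes higher and 30 lower, with a median of -0.09. The counts without chromosomes 8 and 11, over 75 KRAB genes, were 10 higher and 46 lower for the knockdown and 41 higher and 15 lower for Sirt1KO. All loci were called higher and lower at 35.8% and 38.8% in EpiLC, 32.4% and 32.7% in Sirt1KO, and 31.1% and 31.5% under the knockdown. For Sirt1KO Otx2KD against wild-type ESC these shares were 27.1% and 26.8%. Of the 41 KRAB genes at the level threshold in all 12 libraries, 8 were higher and 24 lower under the knockdown. In Sirt1KO 23 of these 41 were higher and 9 lower. The other KRAB genes met the threshold in some libraries only. A gene that met it only where it was high had to differ between groups. No test of the classes against each other was made.

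**Figure D2:**
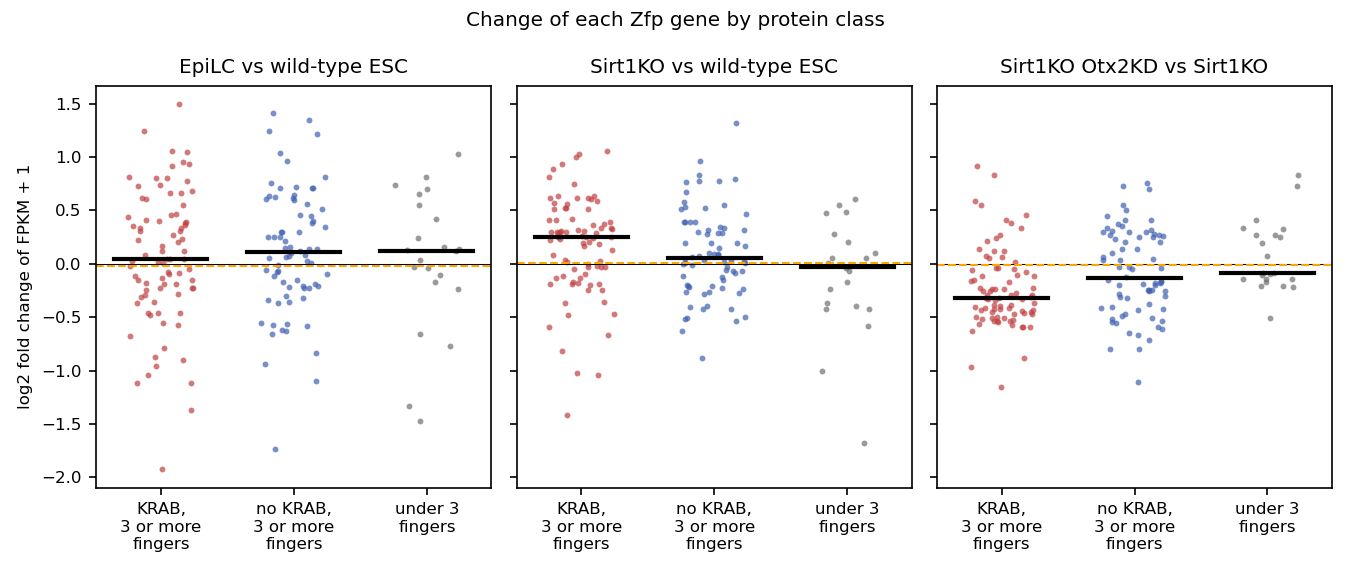
Log2 fold change of FPKM + 1 for each Zfp gene (points) by protein class, in 3 comparisons. Black bars are class medians and the orange dashed line is the median of all 12320 loci tested. The KRAB median is 0.25 in Sirt1KO and -0.32 in Sirt1KO Otx2KD against Sirt1KO. Points include genes that met the level threshold only in groups where they were high.

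Partners that KRAB proteins recruit were read as a list. Of 18 co-repressor genes tested, 7 were higher and 5 lower in EpiLC, 5 higher and 7 lower in Sirt1KO, and 11 higher and 6 lower in Sirt1KO Otx2KD against Sirt1KO. In EpiLC and Sirt1KO these counts are near the shares of all loci, 35.8% higher and 38.8% lower, and 32.4% and 32.7%. Under the knockdown 31.1% of all loci were higher and 31.5% lower. Trim28 itself had a log2 change of -0.08 in EpiLC (adjusted p = 0.187). It fell by 0.18 in Sirt1KO (adjusted p = 0.00938), where its libraries overlapped those of wild-type ESC. In Sirt1KO Otx2KD against Sirt1KO it rose by 0.35 (adjusted p = 8.3e-05). The 3 HP1 genes fell under the knockdown, Cbx5 by 0.60, Cbx3 by 0.35 and Cbx1 by 0.12, but differed in Sirt1KO. There Cbx5 rose by 0.48, Cbx1 fell by 0.38, and Cbx3 was not called (0.16, adjusted p = 0.0941). Cbx1 lies on chromosome 11, whose loci were shifted down against wild-type ESC in both EpiLC and Sirt1KO. Its fall in Sirt1KO was smaller than the median fall of that chromosome given above. In EpiLC Cbx5 rose by 0.65 and Cbx1 by 0.24, and Cbx3 was not called (-0.04, adjusted p = 0.628). Setdb1 rose by 0.34 in EpiLC and by 0.16 under the knockdown.

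Of 8 regulators of retroelements and imprints in the set, 5 were lower and 2 higher in EpiLC, 4 lower and 3 higher in Sirt1KO, and 3 lower and 5 higher in Sirt1KO Otx2KD against Sirt1KO. Beside these small counts, all loci were called lower at 38.8%, 32.7% and 31.5% and higher at 35.8%, 32.4% and 31.1%. Zfp57 (chr17:37137974-37160343 as the files give it) had the libraries given above. It fell by 1.04 ± 0.05 (SE, adjusted p = 1.3e-10) log2 units in EpiLC, by 0.19 ± 0.05 (SE, adjusted p = 0.0026) in Sirt1KO, and rose by 0.34 ± 0.05 (SE, adjusted p = 3.2e-05) in Sirt1KO Otx2KD against Sirt1KO. Its Sirt1KO call was lost when chromosome medians were removed, at -0.07 (adjusted p = 0.289), and its interval overlaps Mog.

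Zfp809, which silences murine leukemia viruses in ESC by binding their primer binding site, was at 29.6, 24.2 and 24.2 FPKM in the wild-type ESC libraries, 12.2, 13.3 and 13.1 in EpiLC, 12.0, 12.1 and 12.7 in Sirt1KO ESC and 14.3, 14.9 and 14.8 in the Sirt1KO Otx2KD libraries. All wild-type ESC libraries lay above all others, with replicate 1 the highest. It fell by 0.95 ± 0.07 (SE, adjusted p = 1.9e-08) in EpiLC and by 1.02 ± 0.07 (SE, adjusted p = 1.8e-08) in Sirt1KO, and stayed lower by 0.78 ± 0.07 (SE, adjusted p = 5.9e-07) in Sirt1KO Otx2KD than in wild-type ESC. Zfp819, a retroelement repressor of germ cells and ESC, was at 7.69, 8.17 and 7.71 FPKM in EpiLC, 18.9, 18.2 and 17.4 in the wild-type ESC libraries, 18.2, 18.2 and 17.2 in the Sirt1KO Otx2KD libraries and 12.5, 12.4 and 13.2 in Sirt1KO ESC. EpiLC was lowest, Sirt1KO next, and the wild-type ESC and Sirt1KO Otx2KD libraries overlapped. It fell by 1.11 ± 0.05 (SE, adjusted p = 1.6e-10) in EpiLC and by 0.48 ± 0.05 (SE, adjusted p = 1.7e-06) in Sirt1KO, and rose by 0.46 ± 0.05 (SE, adjusted p = 3.5e-06) in Sirt1KO Otx2KD against Sirt1KO.

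Zfp568, which represses a placental promoter of Igf2, was at 39.5, 40.4 and 39.0 FPKM in the wild-type ESC libraries, 31.0, 32.9 and 33.0 in EpiLC, 29.9, 30.4 and 31.6 in Sirt1KO ESC and 47.8, 44.5 and 47.0 in the Sirt1KO Otx2KD libraries. Its Sirt1KO Otx2KD libraries were the highest of the 12. The log2 change was -0.29 ± 0.04 (SE, adjusted p = 2.7e-05) in EpiLC, -0.36 ± 0.04 (SE, adjusted p = 4.2e-06) in Sirt1KO and 0.58 ± 0.04 (SE, adjusted p = 4.7e-08) in Sirt1KO Otx2KD against Sirt1KO. Zfp445, which acts with Zfp57 on imprints, moved the other way: it was at 31.1, 34.2 and 33.5 FPKM in EpiLC, 25.3, 23.7 and 23.3 in the wild-type ESC libraries, 24.4, 23.4 and 23.2 in the Sirt1KO Otx2KD libraries and 30.7, 33.1 and 31.9 in Sirt1KO ESC. EpiLC and Sirt1KO libraries lay above those of the other two groups, with changes of 0.43 in EpiLC, 0.39 in Sirt1KO and -0.41 under the knockdown. Zfp961 was at 27.7, 26.9 and 23.6 FPKM in the wild-type ESC libraries, 24.8, 25.6 and 26.5 in EpiLC, 31.2, 30.2 and 31.7 in Sirt1KO ESC and 44.8, 47.7 and 45.1 in the Sirt1KO Otx2KD libraries. Its Sirt1KO Otx2KD libraries stood apart from the other 9 and were 0.79 ± 0.06 (SE, adjusted p = 5.3e-08) log2 units higher than wild-type ESC. Zfp961 lies on chromosome 8, and its rise of 0.25 in Sirt1KO became -0.15 (adjusted p = 0.0301) once chromosome medians were removed. Zfp932 rose by 0.81 in EpiLC but shares 45.2% of its 50-base windows with other genes, Gm15446 sharing the most, so its level is uncertain.

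**Figure D3:**
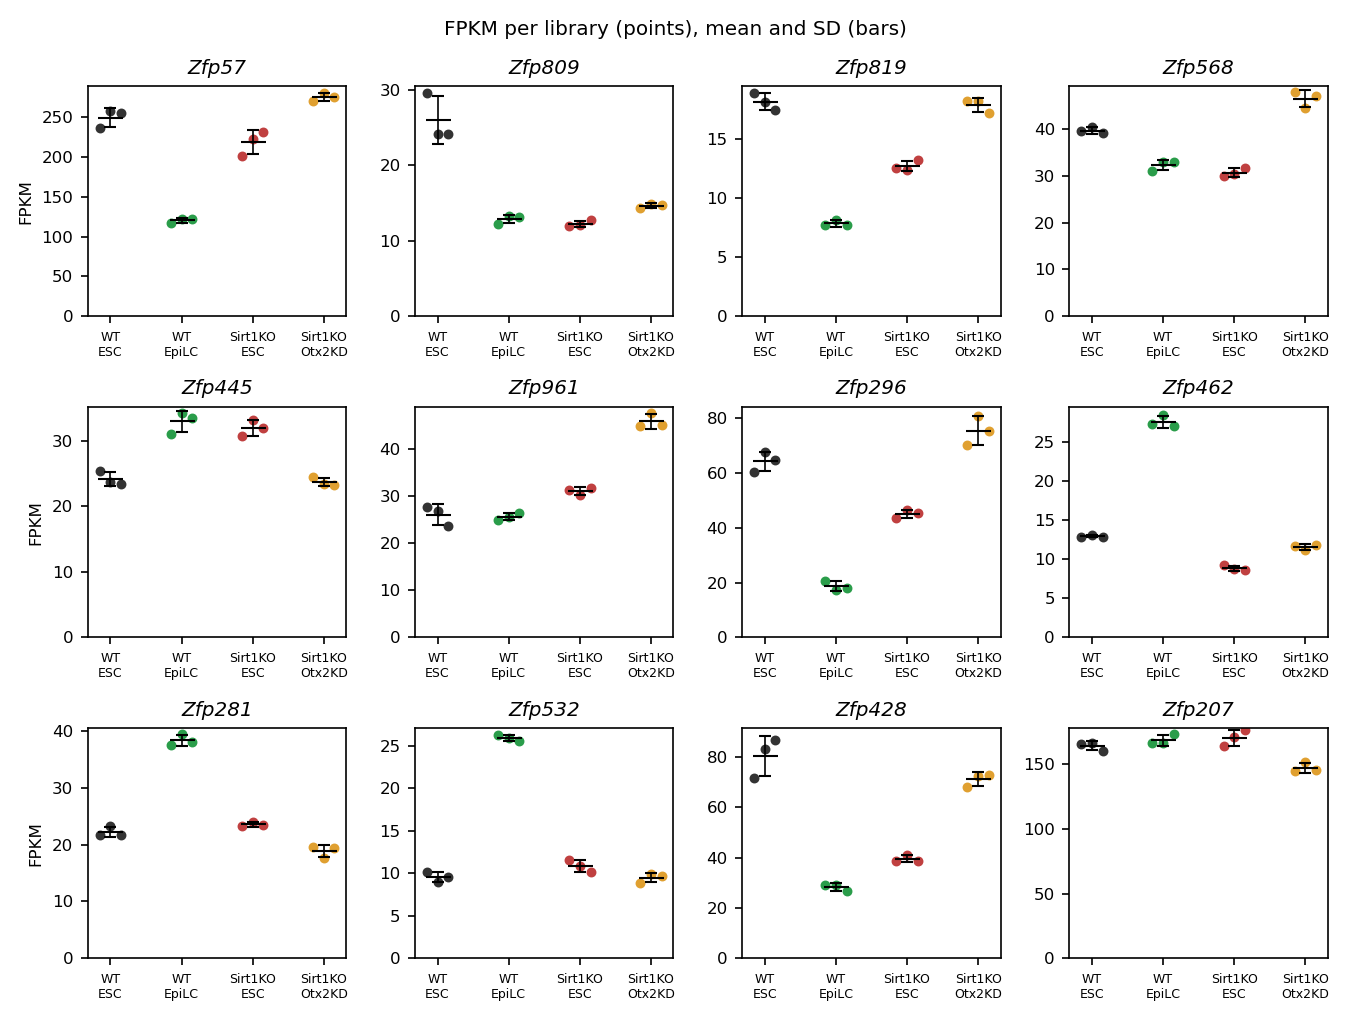
FPKM of 12 Zfp genes in each library (points), with the mean and SD of each group of 3 (bars), every axis starting at 0. Zfp57, Zfp296 and Zfp428 are lowest in EpiLC, while Zfp462, Zfp281 and Zfp532 are highest there.

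Of 9 pluripotency and early embryo genes in the set, 4 rose and 3 fell in EpiLC, near the 35.8% and 38.8% of all loci. In Sirt1KO 1 rose and 3 fell (all loci 32.4% and 32.7%), and in Sirt1KO Otx2KD against Sirt1KO 4 rose and 4 fell (31.1% and 31.5%). Zfp296 (chr7:20162635-20166005), a partner of Oct4 and Klf4 in ESC, was at 20.7, 17.1 and 18.0 FPKM in EpiLC, 60.5, 67.5 and 64.9 in the wild-type ESC libraries, 70.2, 80.9 and 75.4 in the Sirt1KO Otx2KD libraries and 43.6, 46.3 and 45.2 in Sirt1KO ESC. EpiLC was lowest, Sirt1KO next, and the wild-type ESC libraries lay under those of Sirt1KO Otx2KD. The gene fell by 1.74 ± 0.07 (SE, adjusted p = 2.8e-11) in EpiLC and by 0.50 ± 0.07 (SE, adjusted p = 1.6e-05) in Sirt1KO, and rose by 0.73 ± 0.07 (SE, adjusted p = 5.6e-07) with Otx2 knockdown. Zfp462 (chr4:54960816-55096435), a large protein that represses lineage genes in ESC, was at 12.9, 13.1 and 12.9 FPKM in the wild-type ESC libraries, 27.3, 28.5 and 27.1 in EpiLC, 9.20, 8.77 and 8.57 in Sirt1KO ESC and 11.7, 11.2 and 11.8 in the Sirt1KO Otx2KD libraries. EpiLC libraries lay above all others, and the Sirt1KO libraries were the lowest. Its changes were 1.04 ± 0.05 (SE, adjusted p = 1.3e-10) in EpiLC, -0.50 ± 0.05 (SE, adjusted p = 4.5e-07) in Sirt1KO and 0.35 ± 0.05 (SE, adjusted p = 2.1e-05) in Sirt1KO Otx2KD against Sirt1KO, so that EpiLC and Sirt1KO differed by 1.54.

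Zfp281, a regulator of the exit from the naive state, was at 37.6, 39.4 and 38 FPKM in EpiLC, 21.8, 23.2 and 21.8 in the wild-type ESC libraries, 19.5, 17.7 and 19.4 in the Sirt1KO Otx2KD libraries and 23.2, 24.0 and 23.5 in Sirt1KO ESC. It rose by 0.76 ± 0.05 (SE, adjusted p = 3.9e-09) in EpiLC, was not called in Sirt1KO (0.08, adjusted p = 0.16) and fell by 0.31 in Sirt1KO Otx2KD against Sirt1KO. Zfp609, a partner of cohesin loading, and Zfp217, a partner of a histone demethylase complex, rose by 0.81 and 0.39 in EpiLC. Zfp143, a promoter-binding activator, had changes of 0.07 in EpiLC and 0.04 in Sirt1KO, neither called, and fell by 0.17 under the knockdown. Zfp410, which activates Chd4, fell by 0.23 in EpiLC and rose by 0.32 in Sirt1KO.

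Among 7 genes whose proteins partner with chromatin complexes, 4 rose and 1 fell in EpiLC (all loci 35.8% and 38.8%), 3 rose and 1 fell in Sirt1KO (32.4% and 32.7%), and 3 rose and 3 fell in Sirt1KO Otx2KD against Sirt1KO (31.1% and 31.5%). Zfp532, Zfp592 and Zfp687 belong to 1 complex on active chromatin. Zfp532 was at 10.2, 8.97 and 9.60 FPKM in the wild-type ESC libraries, 26.2, 25.9 and 25.6 in EpiLC, 11.6, 10.9 and 10.2 in Sirt1KO ESC and 8.90, 9.88 and 9.72 in the Sirt1KO Otx2KD libraries. EpiLC libraries stood above the rest, with a change of 1.35 ± 0.06 (SE, adjusted p = 1.4e-10), while wild-type ESC and Sirt1KO libraries overlapped. Zfp687, which overlaps Pi4kb, rose by 0.63 in EpiLC, whereas Zfp592 had a change of -0.07 there (adjusted p = 0.35) and rose by 0.55 under Otx2 knockdown. Zfp644, a partner of the G9a and GLP methyltransferases, rose by 0.81 in EpiLC and 0.77 in Sirt1KO and fell by 0.49 under the knockdown.

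Of 10 genes for RNA and ribosome proteins, 2 rose and 4 fell in EpiLC, 2 rose and 4 fell in Sirt1KO, and 3 rose and 3 fell under the knockdown. All loci rose and fell at 35.8% and 38.8%, 32.4% and 32.7%, and 31.1% and 31.5%. Changes of the 10 in these 3 comparisons lay between -0.65 and 0.33. Zfp598, the sensor of collided ribosomes, fell by 0.23 in EpiLC (-0.09, adjusted p = 0.111, with chromosome medians removed), and Zfp622, a factor of large ribosomal subunit assembly, fell by 0.34. Zfp326, a splicing factor, fell by 0.43 in Sirt1KO. Zfp830, also linked to splicing, fell by 0.40 in Sirt1KO, but it lies on chromosome 11 and its change became 0.10 (adjusted p = 0.104) with chromosome medians removed.

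The largest falls in EpiLC were in Zfp229, Zfp296, Zfp428, Zfp59, Zfp750, Zfp951, Zfp819, Zfp628, Zfp57 and Zfp809, from -1.92 to -0.95 log2 units. Zfp428 (chr7:25292105-25300701) was at 29.2, 29.1 and 26.7 FPKM in EpiLC, 71.5, 83.2 and 86.7 in the wild-type ESC libraries, 68.0, 72.6 and 73.0 in the Sirt1KO Otx2KD libraries and 38.8, 41.2 and 38.7 in Sirt1KO ESC. Its EpiLC libraries were lowest and its Sirt1KO libraries next, with changes of -1.47 ± 0.06 (SE, adjusted p = 7.7e-11) in EpiLC, -1.0 ± 0.06 (SE, adjusted p = 8.2e-09) in Sirt1KO and 0.83 ± 0.06 (SE, adjusted p = 8.2e-08) under the knockdown. Zfp750, a regulator of epidermal differentiation, lies on chromosome 11 and overlaps Tbcd and B3gntl1, so its reads may be shared. It was at 13.5, 12.9 and 11.8 FPKM in the wild-type ESC libraries, 4.53, 4.66 and 4.17 in EpiLC, 2.48, 3.48 and 4.10 in Sirt1KO ESC and 5.91, 6.10 and 6.33 in the Sirt1KO Otx2KD libraries. Wild-type ESC stood above the other 9 libraries, and the change was -1.33 in EpiLC and -1.68 in Sirt1KO, the largest fall of the 179 genes in Sirt1KO. Zfp59 shares 52.4% of its windows with other genes.

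The largest rises in EpiLC were in Zfp760, Zfp623, Zfp532, Zfp866, Zfp397, Zfp275, Zfp930, Zfp948, Zfp462 and Zfp365, from 1.49 down to 1.03. Zfp623 (chr15:75771381-75779830) was at 11.6, 10.5 and 11.1 FPKM in EpiLC, 4.42, 3.03 and 3.28 in the wild-type ESC libraries, 6.26, 7.06 and 6.02 in the Sirt1KO Otx2KD libraries and 11.6, 9.63 and 9.90 in Sirt1KO ESC. EpiLC and Sirt1KO libraries overlapped and lay above the others, with changes of 1.41 ± 0.10 (SE, adjusted p = 2.0e-08) and 1.32 ± 0.10 (SE, adjusted p = 7.3e-08). Zfp275 is the 1 gene of the set on chromosome X and rose by 1.21 in EpiLC. Zfp365, linked to the DNA damage response, rose by 1.03 in EpiLC and 0.47 in Sirt1KO.

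In Sirt1KO the 10 largest falls were in Zfp750, Zfp229, Zfp74, Zfp809, Zfp428, Zfp652, Zfp566, Zfp846, Zfp238 and Zfp446, and the 10 largest rises in Zfp623, Zfp948, Zfp760, Zfp930, Zfp358, Zfp866, Zfp958, Zfp637, Zfp1 and Zfp828. Of these rises, 6 lie on chromosome 8, where the median of all loci was 0.46: Zfp930, Zfp358, Zfp866, Zfp958, Zfp1 and Zfp828. Zfp74 (chr7:30717809-30736912) was at 22.6, 21.7 and 21 FPKM in the wild-type ESC libraries, 11.2, 11.4 and 11.6 in EpiLC, 9.56, 10.4 and 10.3 in Sirt1KO ESC and 19.7, 19.1 and 21 in the Sirt1KO Otx2KD libraries. Its EpiLC and Sirt1KO libraries lay under all those of the other two groups. The change was -0.88 ± 0.05 (SE, adjusted p = 2.3e-09) in EpiLC, -1.04 ± 0.05 (SE, adjusted p = 8.9e-10) in Sirt1KO and 0.92 ± 0.05 (SE, adjusted p = 5.0e-09) in Sirt1KO Otx2KD against Sirt1KO, the largest rise of the last comparison. Zfp238, also called Zbtb18, a repressor in neural development, fell by 0.63 in Sirt1KO and was not called under the knockdown (0.11, adjusted p = 0.19).

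With Otx2 knocked down, the largest falls were in Zfp948, Zfp72, Zfp266, Zfp799, Zfp512, Zfp239, Zfp105, Zfp146, Zfp7 and Zfp623, from -1.15 to -0.61. The largest rises were in Zfp74, Zfp229, Zfp428, Zfp574, Zfp296, Zfp750, Zfp628, Zfp568, Zfp592 and Zfp961, from 0.92 to 0.55. Of the genes named for the size of their change, Zfp7, Zfp566 and Zfp866 share 20.6%, 15.7% and 12.0% of their windows with other genes. Their levels are therefore uncertain. Zfp266 (chr9:20299512-20325863) was at 29.3, 31.4 and 30.7 FPKM in EpiLC, 16.7, 15 and 14.7 in the wild-type ESC libraries, 11.3, 11.3 and 10.7 in the Sirt1KO Otx2KD libraries and 22.1, 23.2 and 22.6 in Sirt1KO ESC. All 4 groups stood apart, with EpiLC highest and Sirt1KO Otx2KD lowest, and the change under the knockdown was -0.97 ± 0.05 (SE, adjusted p = 3.4e-09). Zfp72 was at 4.99, 3.37 and 3.07 FPKM in the wild-type ESC libraries, 6.05, 7.22 and 7.03 in EpiLC, 5.16, 6.32 and 5.92 in Sirt1KO ESC and 1.85, 2.08 and 2.57 in the Sirt1KO Otx2KD libraries. It fell by 1.11 under the knockdown from low levels, where the added 1 FPKM makes a log2 change smaller than the ratio of the levels.

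Genomic position was read from the deposited intervals, taken as mm9. The 179 genes lie on 19 chromosomes, with 44 on chromosome 7, 26 on chromosome 17 and 12 each on chromosomes 5, 8, 9 and 13. With Zfp loci of any level joined when at most 500 kb apart, 17 clusters held 3 or more of the 179 genes and 80 of them in all. Of the 83 KRAB genes 57 were in such a cluster, of the 74 fingers-only genes 19, and of the 22 with few fingers 4. By chromosome, the 12 genes of chromosome 8 had 11 higher and 0 lower in EpiLC (median 0.69) and 11 higher and 0 lower in Sirt1KO (median 0.70), beside the shift of that chromosome given above. Under Otx2 knockdown 1 of them was higher and 10 lower, with a median of -0.50 against -0.10 for all loci there. On chromosome 13, 12 of 12 genes were lower under the knockdown, with a median of -0.47 against -0.12 for all 441 loci tested there. Among these, Zfp58, Zfp808 and Zfp825 share 50.2%, 43.1% and 28.7% of their windows with other genes, so their levels are uncertain. Zfp72 and Zfp493 met the level threshold in 0 Sirt1KO Otx2KD libraries, so they entered the set through other groups. The 44 genes of chromosome 7 leaned the other way in EpiLC, with 8 higher and 22 lower (median -0.19, all loci -0.04), and were even under the knockdown, with 17 higher and 17 lower. The 8 genes of chromosome 11 had 2 higher and 2 lower in EpiLC, 1 higher and 4 lower in Sirt1KO, and 2 higher and 4 lower under the knockdown. All 7 genes of chromosome 6 were higher in Sirt1KO (median 0.42, all loci 0.15). Over all 12320 loci tested, 35.8% were called higher and 38.8% lower in EpiLC. The shares were 32.4% and 32.7% in Sirt1KO and 31.1% and 31.5% under the knockdown, and they stand beside the cluster counts below too. Shares called on each chromosome are not given here, so the counts on the shifted chromosomes 8 and 11 cannot be read against their own.

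**Figure D4:**
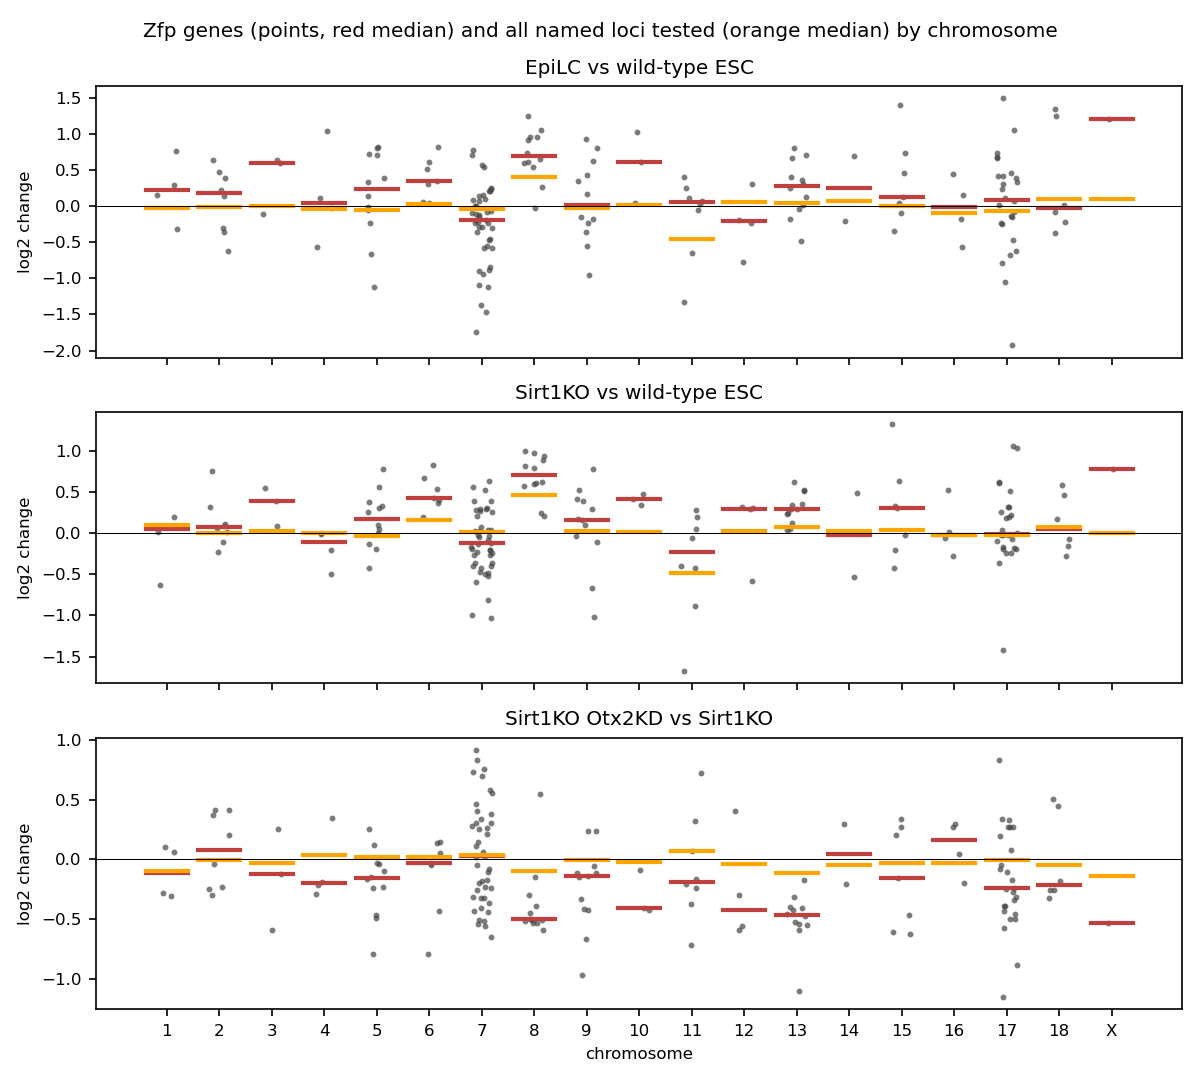
Log2 change of each Zfp gene (points) by chromosome in 3 comparisons, with the median of the Zfp genes (red bars) and of all named loci tested on that chromosome (orange bars). Orange bars depart from 0 on chromosomes 8 and 11 against wild-type ESC, and all points of chromosome 13 lie under 0 in the knockdown comparison.

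The largest cluster spans 2591 kb of chromosome 17 (chr17:21145904-23736454) with 20 Zfp loci, of which 12 are in the set. Of these 12 KRAB genes, 7 rose and 3 fell in EpiLC, 6 rose and 2 fell in Sirt1KO, and 2 rose and 8 fell in Sirt1KO Otx2KD against Sirt1KO. Neighbours within it moved in opposite directions. Zfp948 (chr17:21704009-21725649) was at 9.90, 10.6 and 11.4 FPKM in EpiLC, 4.50, 4.40 and 4.96 in the wild-type ESC libraries, 4.27, 4.68 and 3.83 in the Sirt1KO Otx2KD libraries and 10.8, 10.9 and 10.3 in Sirt1KO ESC. EpiLC and Sirt1KO libraries lay above the other two groups, which overlapped. Zfp760 (chr17:21844707-21862603) was at 3.97, 3.35 and 3.57 FPKM in the wild-type ESC libraries, 11.4, 12.8 and 12.0 in EpiLC, 8.24, 8.79 and 8.28 in Sirt1KO ESC and 5.91, 5.66 and 5.45 in the Sirt1KO Otx2KD libraries. Here all 4 groups stood apart, with wild-type ESC lowest and EpiLC highest. Zfp229 (chr17:21870690-21885936), whose start lies 26.0 kb from that of Zfp760, was at 4.59, 4.63 and 4.38 FPKM in EpiLC, 21, 19.9 and 19.2 in the wild-type ESC libraries, 12.8, 12.9 and 13.4 in the Sirt1KO Otx2KD libraries and 6.59, 6.64 and 7.38 in Sirt1KO ESC. Its order of groups was the reverse of that of Zfp760. In EpiLC the log2 change was 1.05 ± 0.07 (SE, adjusted p = 1.4e-08) for Zfp948, 1.49 ± 0.07 (SE, adjusted p = 1.3e-10) for Zfp760 and -1.92 ± 0.06 (SE, adjusted p = 2.2e-12) for Zfp229. In Sirt1KO it was 1.05 ± 0.07 (SE, adjusted p = 2.5e-08), 1.03 ± 0.07 (SE, adjusted p = 1.2e-08) and -1.42 ± 0.06 (SE, adjusted p = 1.0e-10), and in Sirt1KO Otx2KD against Sirt1KO -1.15 ± 0.07 (SE, adjusted p = 1.7e-08), -0.50 ± 0.07 (SE, adjusted p = 2.2e-05) and 0.84 ± 0.06 (SE, adjusted p = 3.0e-08), in the same order. Zfp820, next after Zfp229, had the same signs as Zfp229 in these 3 comparisons, with -0.79, -0.25 and 0.27.

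**Figure D5:**
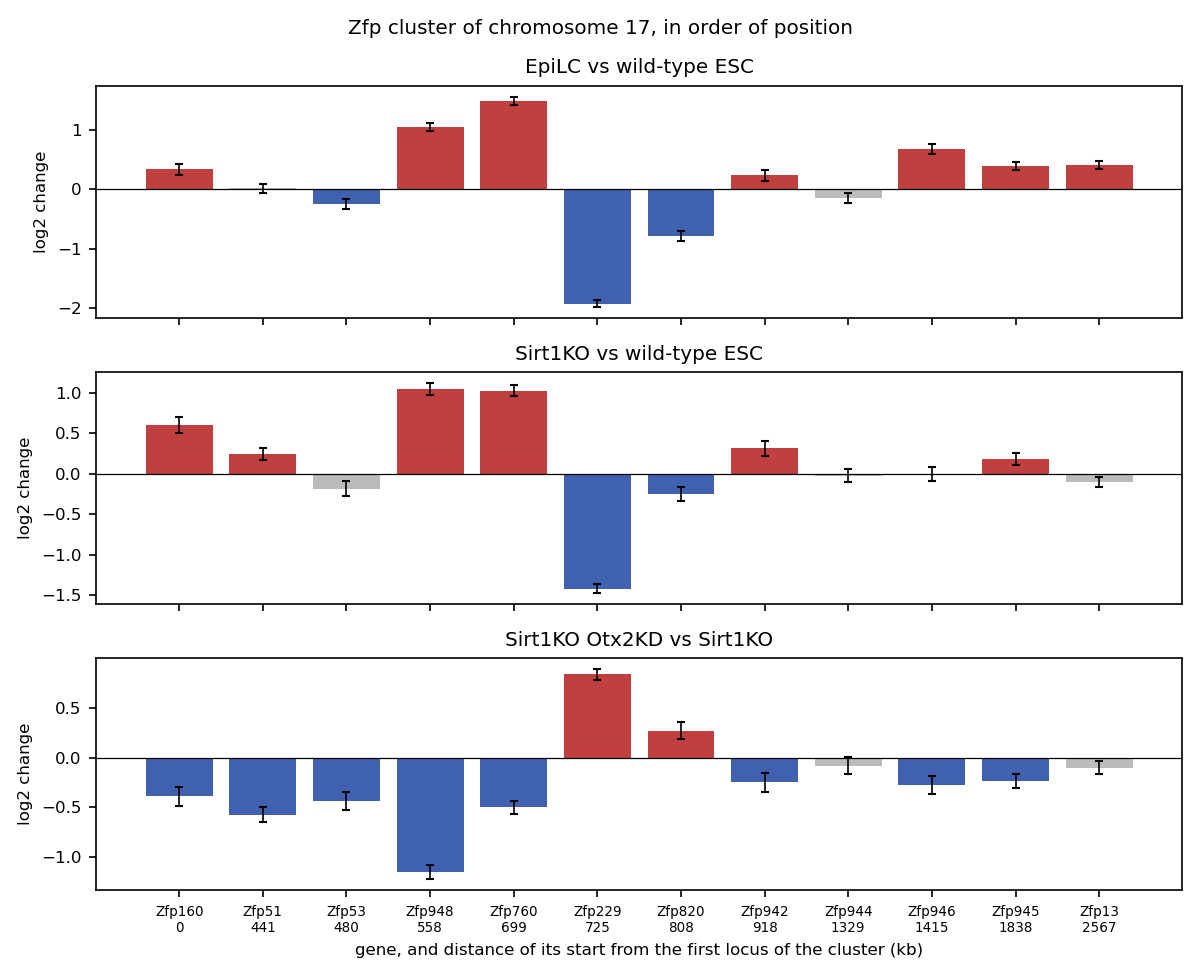
Log2 change with its standard error for the 12 Zfp genes of the largest chromosome 17 cluster, in order of position (bars; red higher, blue lower, grey not called). Zfp760 rises and its neighbour Zfp229 falls in EpiLC and Sirt1KO, and both turn around in Sirt1KO Otx2KD against Sirt1KO.

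The promoters of these 3 neighbours are shown because their genes moved in opposite directions. Each runs from 250 bases before to 50 after a transcription start in RefSeq's GRCm38.p6 table, whose coordinates differ from the mm9 of the files, and capitals mark CpG dinucleotides.
Zfp948, chr17:21566728-21567027, + strand: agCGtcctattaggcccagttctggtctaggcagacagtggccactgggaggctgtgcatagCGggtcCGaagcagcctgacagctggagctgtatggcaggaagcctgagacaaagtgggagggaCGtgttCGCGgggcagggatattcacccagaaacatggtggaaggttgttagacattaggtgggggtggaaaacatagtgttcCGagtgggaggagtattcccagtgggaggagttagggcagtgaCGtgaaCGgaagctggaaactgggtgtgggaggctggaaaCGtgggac
Zfp760, chr17:21707491-21707790, + strand: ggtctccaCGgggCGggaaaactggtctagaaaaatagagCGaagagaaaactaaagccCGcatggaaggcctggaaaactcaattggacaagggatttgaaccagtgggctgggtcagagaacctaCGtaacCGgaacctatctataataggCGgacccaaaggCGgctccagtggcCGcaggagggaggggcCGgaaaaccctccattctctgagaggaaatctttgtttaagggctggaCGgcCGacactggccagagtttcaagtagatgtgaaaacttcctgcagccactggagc
Zfp229, chr17:21733474-21733773, + strand: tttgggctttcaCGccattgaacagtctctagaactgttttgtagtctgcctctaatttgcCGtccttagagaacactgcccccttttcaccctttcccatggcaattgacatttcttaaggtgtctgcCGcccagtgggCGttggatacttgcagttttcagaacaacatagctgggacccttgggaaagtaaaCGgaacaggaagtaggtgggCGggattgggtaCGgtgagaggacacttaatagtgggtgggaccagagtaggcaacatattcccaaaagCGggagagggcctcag
They hold 10, 12 and 8 CpG, with 57.0%, 53.3% and 50.3% G or C. Of 7 short motifs searched on both strands, a match was found in 1 of the 3, the E2F letters TTTCCCGC in Zfp760.

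A cluster of chromosome 13 (chr13:67139529-67931922) has 16 Zfp loci and 5 genes of the set, Zfp459, Zfp58, Zfp87, Zfp748 and Zfp493, which have KRAB boxes. All 5 fell in Sirt1KO Otx2KD against Sirt1KO, by log2 changes of -0.41, -0.46, -0.54, -0.55 and -0.47. In Sirt1KO 4 rose, and Zfp459 was not called (0.03). In EpiLC Zfp87 and Zfp493 rose and Zfp459 fell. Zfp748 was at 7.55, 8.43 and 7.19 FPKM in the wild-type ESC libraries, 8.79, 7.12 and 7.70 in EpiLC, 8.13, 10.5 and 10.5 in Sirt1KO ESC and 6.14, 6.43 and 6.32 in the Sirt1KO Otx2KD libraries. Sirt1KO replicate 1 lay among the wild-type ESC libraries, and Sirt1KO Otx2KD lay under all others. Zfp459 was at 8.03, 8.55 and 9.04 FPKM in EpiLC, 12.5, 12.1 and 12.2 in the wild-type ESC libraries, 9.43, 9.22 and 9.05 in the Sirt1KO Otx2KD libraries and 11.9, 12.6 and 13.3 in Sirt1KO ESC. Wild-type ESC and Sirt1KO overlapped, and EpiLC was lowest. Zfp58 shares 50.2% of its windows with other genes, so its level is uncertain. Zfp493 met the level threshold in 0 Sirt1KO Otx2KD libraries. The promoters of 3 of these genes are shown because all 3 fell under the knockdown. RefSeq entries were matched on the same build and written as above.
Zfp459, chr13:67421369-67421668, - strand: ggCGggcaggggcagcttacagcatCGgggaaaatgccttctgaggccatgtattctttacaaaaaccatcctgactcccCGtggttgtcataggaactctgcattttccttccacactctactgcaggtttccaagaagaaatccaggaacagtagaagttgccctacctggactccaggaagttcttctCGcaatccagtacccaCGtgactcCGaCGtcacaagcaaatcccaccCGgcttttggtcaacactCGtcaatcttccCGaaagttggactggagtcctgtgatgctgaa
Zfp58, chr13:67500473-67500772, - strand: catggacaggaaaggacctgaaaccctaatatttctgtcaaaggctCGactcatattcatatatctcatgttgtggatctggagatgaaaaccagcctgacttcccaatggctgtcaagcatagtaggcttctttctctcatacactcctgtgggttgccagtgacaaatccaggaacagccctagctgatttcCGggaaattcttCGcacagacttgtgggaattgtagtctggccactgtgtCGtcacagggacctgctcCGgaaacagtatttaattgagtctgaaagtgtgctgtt
Zfp748, chr13:67553103-67553402, - strand: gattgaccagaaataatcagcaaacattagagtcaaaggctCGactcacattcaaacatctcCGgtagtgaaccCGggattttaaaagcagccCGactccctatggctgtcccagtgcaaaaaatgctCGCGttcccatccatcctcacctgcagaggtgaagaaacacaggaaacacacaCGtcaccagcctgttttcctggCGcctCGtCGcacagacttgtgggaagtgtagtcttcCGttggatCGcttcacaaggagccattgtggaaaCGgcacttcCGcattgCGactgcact
They hold 10, 5 and 15 CpG. The core of the site that Zfp143 binds occurs in Zfp58, on the opposite strand at bases 221 to 231 of the printed run.

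Over the set, 192 RefSeq promoters were matched to 146 of the 179 genes. Their median CpG count was 16 in 300 bases, against 7 in all 32851 promoters of the table. On either strand, the ETS letters CCGGAAG were in 22.9% of the promoters of these genes and 8.86% of all, and the CRE letters TGACGTCA in 5.73% and 1.79%. The Zfp143 core was in 2.08% and 0.286%, the E2F letters in 3.65% and 1.07%, the YY1 letters AAGATGGCG in 2.60% and 1.40%, and the NRF1 site in 1.56% and 0.971%. TATAAA was in 9.90% and 13.6%. The genes of the set had to pass a level threshold, and the promoters of the whole table did not. The part of that threshold in these differences was not tested, and the shares describe the windows only.

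Other clusters differed among themselves. The second cluster of chromosome 17 (chr17:32902441-33768737) has 9 genes of the set, of which 5 rose and 2 fell in EpiLC, 4 rose and 2 fell in Sirt1KO, and 1 rose and 6 fell under the knockdown. Zfp799 fell most there (-0.88). In the cluster of chromosome 8 (chr8:71732944-72298810) the 4 genes Zfp930, Zfp868, Zfp869 and Zfp866 rose in EpiLC and in Sirt1KO and fell in Sirt1KO Otx2KD against Sirt1KO. Zfp930 was at 14, 12.3 and 12.8 FPKM in the wild-type ESC libraries, 28.8, 27.1 and 28.7 in EpiLC, 25.2, 28.8 and 27.2 in Sirt1KO ESC and 19.7, 19.1 and 19.8 in the Sirt1KO Otx2KD libraries. It was higher by 1.06 ± 0.06 (SE, adjusted p = 8.0e-10) in EpiLC and 1.00 ± 0.06 (SE, adjusted p = 3.1e-09) in Sirt1KO, on a chromosome whose loci had medians of 0.40 and 0.46. Against Sirt1KO, the 4 genes had a median of -0.47 under the knockdown, where all loci of chromosome 8 had -0.10.

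A pair of clusters on chromosome 7 held genes of either direction. In the first (chr7:30553570-30954833), with 15 Zfp loci and 9 genes of the set, 2 rose and 5 fell in EpiLC, 3 rose and 4 fell in Sirt1KO, and 3 rose and 4 fell under the knockdown. It holds Zfp74 and Zfp568, which rose under the knockdown, beside Zfp146, which fell by 0.65, and Zfp260, which fell by 0.41. Zfp82 of this cluster shares 94.4% of its windows with other genes. In the second (chr7:134376956-135034484), 4 of 5 genes rose under the knockdown and 0 fell, and 0 rose and 3 fell in Sirt1KO. The 4 that rose, Zfp553, Zfp771, Zfp668 and Zfp646, have 8 to 27 fingers and no KRAB box, and Zfp688, which was not called, has a KRAB box and 2 fingers. The interval of Zfp646 overlaps Prss53.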

How the data were processed

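RNA of 12 libraries in 4 groups of 3 was sequenced. The authors deposited FPKM values per locus, with locus intervals, and the submitters' processing notes name TopHat, Cufflinks, Cuffdiff and mm9, whose versions are not given in the sources used here. FPKM holds no counts, so no interval on depth could be given. Per the file headers each table has 27914 loci. The 4778 without a gene name, which hold 95.3% to 96.9% of the summed FPKM, were left out. Library labels gave the groups.

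Named loci with an FPKM of at least 1 in at least 3 libraries (12320) were fitted with limma 3.58.1 in R 4.3.3 on log2(FPKM + 1), with 1 mean per group, trend and robust empirical Bayes, 8 residual degrees of freedom and Benjamini-Hochberg adjustment. The fit was tested on simulated data. Python 3.11.15 was used for the rest.

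The members, role lists, markers and tests were chosen with earlier results of these data known. Genes named are the 10 called higher and the 10 called lower with the largest change and groups that do not overlap in each main comparison, the 5 with the highest mean, the role lists, the cluster members, and the 3 on either side of the level threshold. Genes named from the co-repressor list, and those whose values are given for chromosomes, were chosen after their values were seen. Fingers and KRAB boxes were read from translated GENCODE M21 coding sequences, since no protein table was used here. A KRAB box was a score above 0 on a 38-residue profile built from 145 windows, and 7 of 331 scored loci fell between -10 and 30. Over 10% of 50-base transcript windows were shared with transcripts of other genes by 19 members, whose levels are uncertain. Other loci overlapped 16 members. Alternatives covered the pseudocount, filter, scaling, samples fitted, chromosomes, replicate block, member threshold and each replicate left out.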

Additional observations from a re-analysis of the deposited data

How the results depend on the processing

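Stricter level thresholds leave fewer genes to count. With the 100 genes at an FPKM of at least 10 in 3 libraries, or the 115 at 5 or more in all 12, EpiLC against wild-type ESC had 49 and 52 higher, and 32 lower with the first. Sirt1KO had 44 and 49 higher, and 29 lower with the first. Sirt1KO Otx2KD against Sirt1KO had 32 and 32 higher and 51 and 57 lower. EpiLC against Sirt1KO had 36 and 37 higher and 30 and 37 lower. Sirt1KO Otx2KD against wild-type ESC had 26 and 25 higher, and 33 lower with the first. Of the 83 KRAB genes these thresholds kept 34 and 41. Among them EpiLC had 16 and 16 higher and 12 and 15 lower, and Sirt1KO 20 and 23 higher and 9 and 9 lower. The knockdown had 9 and 8 KRAB genes higher and 19 and 24 lower, against 11 higher and 53 lower of all 83. Smaller sets give lower counts, and whether the balance of higher and lower also changed was not tested.

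With each replicate left out in turn, the counts higher and lower ranged from 72 to 78 and 51 to 56 in EpiLC, 75 to 81 and 39 to 43 in Sirt1KO, 41 to 45 and 85 to 93 under the knockdown, 48 to 53 and 57 to 64 for EpiLC against Sirt1KO, and 40 to 45 and 49 to 54 for Sirt1KO Otx2KD against wild-type ESC. Those of KRAB genes ranged from 32 to 37 and 23 to 29, 42 to 49 and 12 to 16, and 9 to 12 and 49 to 54 in the 3 main comparisons. Without the 19 genes that share sequence, the counts were 73 and 51, 73 and 39, and 40 and 84. With chromosome medians removed they were 88 and 46, 83 and 33, and 39 and 96 of 179. All 12320 loci leaned the same way under this setting, with 4741 and 4217, 4256 and 3347, and 3384 and 4216, against 4410 and 4780, 3987 and 4023, and 3830 and 3877 without it.

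Same-numbered libraries had correlations of deviations from -0.107 to 0.170, with 2 of 18 pairs over 0.1, so the numbers were not taken to pair samples. With a replicate block the counts were 79 and 53, 82 and 44, and 46 and 92 in the 3 main comparisons, 54 and 62 for EpiLC against Sirt1KO and 45 and 53 for Sirt1KO Otx2KD against wild-type ESC. Of 2366 alternative values for 169 results on single genes, each a gene in a given comparison, 2302 kept direction and call. A further 62 values, from 17 of the 169 results, lost the call. The other 2 reversed, both in Sirt1KO with chromosome medians removed: Zfp830 at 0.10 and Zfp961 at -0.15.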
